A study of Homo sapiens with 6 samples.

Results

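The genes described here are 9 human genes of blood clotting and clot removal. They are the fibrinogen chain genes FGA, FGB and FGG, the tissue factor gene F3, its inhibitor TFPI, the protein S gene PROS1, the plasminogen activator genes PLAU and PLAT, and the urokinase receptor gene PLAUR. They were chosen by gene symbol, and all 9 were found among the 29889 genes of the count table. RNA-seq was performed on A549, a human lung adenocarcinoma cell line, in 2 groups of 3 biological replicates. The CELF6-OE cells were transfected with a pIRES-hrGFP-1a plasmid carrying CELF6, an RNA binding protein, and the Control cells with the empty plasmid. Lipofectamine, a lipid reagent, carried the plasmid into the cells of each group, and the cells were collected after 48 h. Both groups therefore carry the plasmid and its reporter, and all libraries come from 1 cell line.

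Fibrinogen is a soluble blood protein built from pairs of alpha, beta and gamma chains, which FGA, FGB and FGG encode. Thrombin cuts it to fibrin, the mesh of a clot. It is made mainly by hepatocytes and is an acute phase protein that IL-6 induces, and lung epithelial cells can also make it. Tissue factor, on the cell surface, starts coagulation together with factor VII, and TFPI blocks that complex. Protein S is a cofactor of activated protein C, which switches clotting off. Urokinase (PLAU) and tissue plasminogen activator (PLAT) convert plasminogen to plasmin, which digests fibrin, and PLAUR holds urokinase at the cell surface.

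The fibrinogen genes lie side by side on chromosome 4 of GRCh38 (chr4:154563011-154612967). The sequences before their start sites are shown because these chains changed together in the data given below. The stretches are the 250 bases before the RefSeq start of FGA (chr4:154590743-154590992, minus strand) and before the more upstream of the RefSeq starts of FGB (chr4:154562730-154562979, plus strand), on GRCh38.p14, written 5′ to 3′ along the gene. Capitals mark matches to CTGGGA, the core of the IL-6 response element, and to the STAT site TTCNNNGAA.
FGA: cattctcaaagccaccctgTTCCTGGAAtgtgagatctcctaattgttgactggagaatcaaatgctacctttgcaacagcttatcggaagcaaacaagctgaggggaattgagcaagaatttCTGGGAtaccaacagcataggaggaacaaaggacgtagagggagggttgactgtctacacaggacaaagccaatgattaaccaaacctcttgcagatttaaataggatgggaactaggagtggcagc
FGB: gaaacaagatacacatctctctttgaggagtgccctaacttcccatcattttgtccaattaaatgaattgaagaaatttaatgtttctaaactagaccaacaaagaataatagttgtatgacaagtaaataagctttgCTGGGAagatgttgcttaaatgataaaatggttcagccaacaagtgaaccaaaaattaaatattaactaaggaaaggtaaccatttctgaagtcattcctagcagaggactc

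The core CTGGGA began at position -127 from the start of FGA. For FGB it began at -112 from the upstream start and at -143 from another RefSeq start, and for FGG at -161 from the RefSeq start. The 30 bases around this match in each gene are set side by side below, with CTGGGA in capitals. They lie at chr4:154590852-154590881 (minus strand), chr4:154562856-154562885 (plus strand) and chr4:154612800-154612829 (minus strand), the last one inside the first exon of a longer annotated FGG transcript.
FGA: gagcaagaatttCTGGGAtaccaacagcat
FGB: aaataagctttgCTGGGAagatgttgctta
FGG: tgtgtgcaaaatCTGGGAacctgacagtat

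RefSeq windows of 300 bases (250 before the start and 50 after it) were searched for 8 of the 9 genes, in 10 windows. PLAT was left out of this search. Searched on both strands, CTGGGA was in 6 of these 10 windows and in 33.3% of all 35116 windows. Beside the fibrinogen genes, PLAUR held it at -237 and -49 and PROS1 at -32, and FGG held a second match, on the opposite strand, at -42. The STAT site was in 2 of 10, those of FGA and PROS1, against 7.66%. The windows of one gene overlap each other, so they are not independent. The AP-1 site TGANTCA was in 2 of 10, against 7.71%, and the matches, in F3 and PLAUR, are shown with the site in capitals. They lie at chr1:94541965-94541994 and chr1:94541952-94541981 for F3, which overlap, and at chr19:43670338-43670367 for PLAUR, all on the minus strand. A match describes the letters only.
F3 at -223: cggtggcgcggtTGAATCActggggtgagt
F3 at -210: gaatcactggggTGAGTCAtcccttgcagg
PLAUR at -186: atcacaactccaTGAGTCAgggccgagcca

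The libraries held 33748328 to 35413404 counts on genes in CELF6-OE and 36422617 to 37920700 in Control. CELF6 had 18646, 20789 and 11571 counts in CELF6-OE replicates 1 to 3 and 0 in each Control library, where a count of 0 allows up to 3 counts. The A549 epithelial markers KRT8 and KRT18 were among the highest genes of the lists, and KRT8 was between 1643 and 2609 FPKM (fragments scaled by transcript length and by the mapped fragments of the library) in all 6 libraries. Of 7 epithelial markers 4 fell in CELF6-OE, against 11.5% of all genes tested. Their log2 fold changes were -0.47 for KRT8, -0.36 for KRT18, -0.22 for KRT19 and -1.62 for CDH1. KRT8 and CDH1 passed in all 6 fits with a library left out, KRT18 in 4 (adjusted p of up to 0.101, edgeR; lost without CELF6-OE replicate 2 or Control replicate 2) and KRT19 in 2 (up to 0.149; kept without Control replicate 1 or 3). Of 7 hepatocyte markers, 6 were too low to test with 2 to 17 counts over the 6 libraries, albumin among them. AHSG, the other one, fell from 0.787 ± 0.302 FPKM in Control to 0.33 ± 0.176 FPKM (SD, n = 3), with a log2 fold change of -1.28 ± 0.39 (SE) and an adjusted p of 0.044 (edgeR). AHSG passed in 2 of 6 fits with a library left out, those without CELF6-OE replicate 3 or Control replicate 3, with an adjusted p of up to 0.13 and a log2 fold change from -1.60 to -0.88. Leukocyte, endothelial and platelet markers were near 0 or did not pass the test, apart from PECAM1 (log2 fold change of -1.86, on at most 0.06 FPKM in any library, and lost without CELF6-OE replicate 1, CELF6-OE replicate 2 or Control replicate 2 at an adjusted p of up to 0.0679). The part of these markers in the results was not tested. In bulk RNA, fewer cells that express a gene and less RNA per cell cannot be told apart.

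A gene is said to have risen or fallen when its Benjamini-Hochberg adjusted p was under 0.05 in edgeR's quasi-likelihood test of the counts of 15847 genes. By that test 6 of the 9 genes fell in CELF6-OE (FGA, FGB, FGG, TFPI, PLAT and PLAUR), none rose, and F3, PROS1 and PLAU did not pass. Of all genes tested, 11.5% fell and 6.47% rose. With a fold change of at least 1.5 as well, 5 of the 9 fell, all but TFPI of those 6, against 5.82% of all genes lower and 1.35% higher. The CPM of the groups (counts scaled to the TMM library size) did not overlap for the same 6 genes, all lower in CELF6-OE, against 20.0% of all genes lower and 17.9% higher. The median log2 fold change of the 9 genes was -0.65, and that of all genes tested was 0.011.

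**Figure D1:**
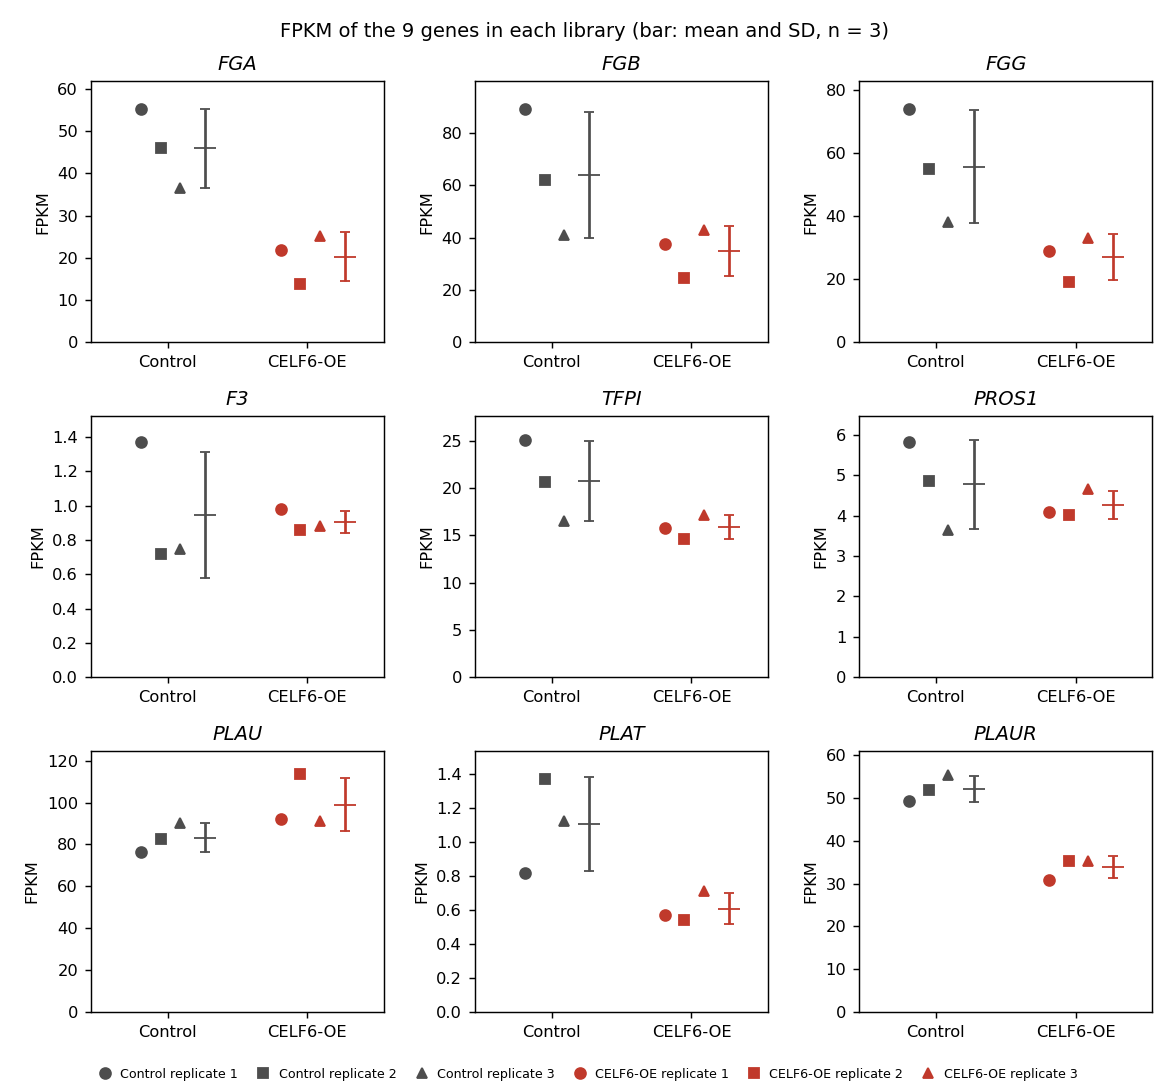
FPKM (y axis, linear, from 0) of each of the 9 genes in the 3 Control (grey) and 3 CELF6-OE (red) libraries, with the mean and SD beside the points and 1 marker shape per replicate number. FGA, FGG, PLAT and PLAUR lie lower in every CELF6-OE library, from 13.9 to 25.1 FPKM against 36.5 to 55.1 FPKM for FGA.

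Levels between genes were compared as FPKM, which is per transcript length. In Control the order of the means was PLAU (83.2), FGB (64.1), FGG (55.6), PLAUR (52.0), FGA (45.9), TFPI (20.8), PROS1 (4.77), PLAT (1.10) and F3 (0.947). FGB was above FGG and FGG above FGA in each Control library. The order of PLAU and FGB changed between Control libraries, as did that of PLAUR with each fibrinogen gene and that of PLAT and F3, so these neighbours do not differ beyond the spread. TFPI lay below all of the fibrinogen genes and above PROS1 in every Control library. In CELF6-OE, PLAU was the highest of the 9 in every library, with a mean of 99.0 FPKM, and FGB followed at 34.9 FPKM with a range that overlapped that of PLAUR at 33.8 FPKM.

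The fibrinogen chains showed the largest falls of the 9 genes, together with PLAT. FGA (ENSG00000171560, chr4:154583126-154590742, minus strand), the alpha chain, had 21.8, 13.9 and 25.1 FPKM in CELF6-OE replicates 1 to 3 and 55.1, 46.1 and 36.5 FPKM in Control replicates 1 to 3. Every CELF6-OE library was below every Control library. The mean was 20.3 ± 5.77 FPKM against 45.9 ± 9.31 FPKM (SD, n = 3), and the log2 fold change was -1.20 ± 0.19 (SE), with an adjusted p of 0.00133 (edgeR). FGA fell to 43.5% of Control in this fit, and it passed the test in all 20 alternatives, with an adjusted p of at most 0.0106.

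FGG (ENSG00000171557, chr4:154604134-154612967, minus strand), the gamma chain, had 28.9, 19.1 and 33.0 FPKM in CELF6-OE and 73.8, 54.7 and 38.2 FPKM in Control. The groups did not overlap, although Control replicate 3 was only a little above CELF6-OE replicate 3. The log2 fold change was -1.06 ± 0.22 (SE), 47.9% of Control, with an adjusted p of 0.00671 (edgeR), and FGG passed in all 20 alternatives, with an adjusted p of at most 0.0342.

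FGB (ENSG00000171564, chr4:154563011-154572807, plus strand), the beta chain, had 37.4, 24.4 and 42.8 FPKM in CELF6-OE and 89.1, 61.9 and 41.2 FPKM in Control. Its groups overlapped in FPKM, where Control replicate 3 lay below CELF6-OE replicate 3, and touched in scaled CPM, where those libraries had 87.9 and 87.3. The log2 fold change was -0.90 ± 0.24 (SE), 53.8% of Control, with an adjusted p of 0.0251 (edgeR). FGB passed in 13 of 20 alternatives. It did not pass without CELF6-OE replicate 1 (log2 fold change of -0.95, adjusted p of 0.064), without CELF6-OE replicate 2 (-0.69, 0.097) or without Control replicate 2 (-0.91, 0.0659). DESeq2 gave an adjusted p of 0.0771 for FGB, scaling by library size alone 0.0504, and limma on log2 FPKM 0.0848 with a pseudocount of 1 and 0.0792 with 0.1.

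The chains kept a common order among libraries. In Control, replicate 1 was the highest and replicate 3 the lowest for each of them, and in CELF6-OE replicate 3 was the highest and replicate 2 the lowest. This order was not particular to the chains. TFPI and PROS1 had it in both groups, as did HNF4A and AHSG from the lists, and F3, PLAU, PLAT and PLAUR did not. The Control replicates spanned 0.51 on the log2 CPM scale for FGA, 1.03 for FGB and 0.87 for FGG, and the CELF6-OE replicates 0.87, 0.82 and 0.81. Among 11441 genes with a mean of at least 100 counts, the median span was 0.22 in Control and 0.14 in CELF6-OE, and the 95th percentile was 0.62 and 0.45. Thus FGB and FGG varied between the Control replicates, and all chains between the CELF6-OE replicates, more than 95% of such genes did. Over the 6 libraries, the genes most like the mean log2 CPM of the chains were ANXA4 (Pearson's r = 0.999), MTUS1 (0.998) and PTGR1 (0.996), all of which fell, with log2 fold changes of -0.76, -0.65 and -0.27. The points of each correlation are the same 6 libraries in 2 groups, and no test was made of it. The group difference was left in, so genes picked as most like falling chains tend to fall too.

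The proportions of the chains were compared as ratios of FPKM within each library. FGA per FGB was 0.583, 0.568 and 0.587 in CELF6-OE and 0.618, 0.745 and 0.887 in Control, so the groups did not overlap. The CELF6-OE mean was 0.579 ± 0.0098 and the Control mean was 0.75 ± 0.13 (SD, n = 3). FGG per FGB was 0.772, 0.78 and 0.772 in CELF6-OE and 0.828, 0.885 and 0.928 in Control, again without overlap. FGA per FGG overlapped, with means of 0.748 ± 0.017 and 0.848 ± 0.1 (SD, n = 3). On the log2 scale the ratios differed by -0.36, -0.18 and -0.17. A two-sided exact permutation test gave p = 0.1 for the first and second, the smallest that 3 libraries against 3 allow, and p = 0.3 for the third. With Benjamini-Hochberg adjustment over the 6 ratios tested here, exact permutation p was 0.15, 0.15 and 0.3. Leaving out Control replicate 3 brought the log2 difference of FGA per FGB to -0.23 and that of FGA per FGG to -0.08, and without Control replicate 1 the latter was -0.26.

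**Figure D2:**
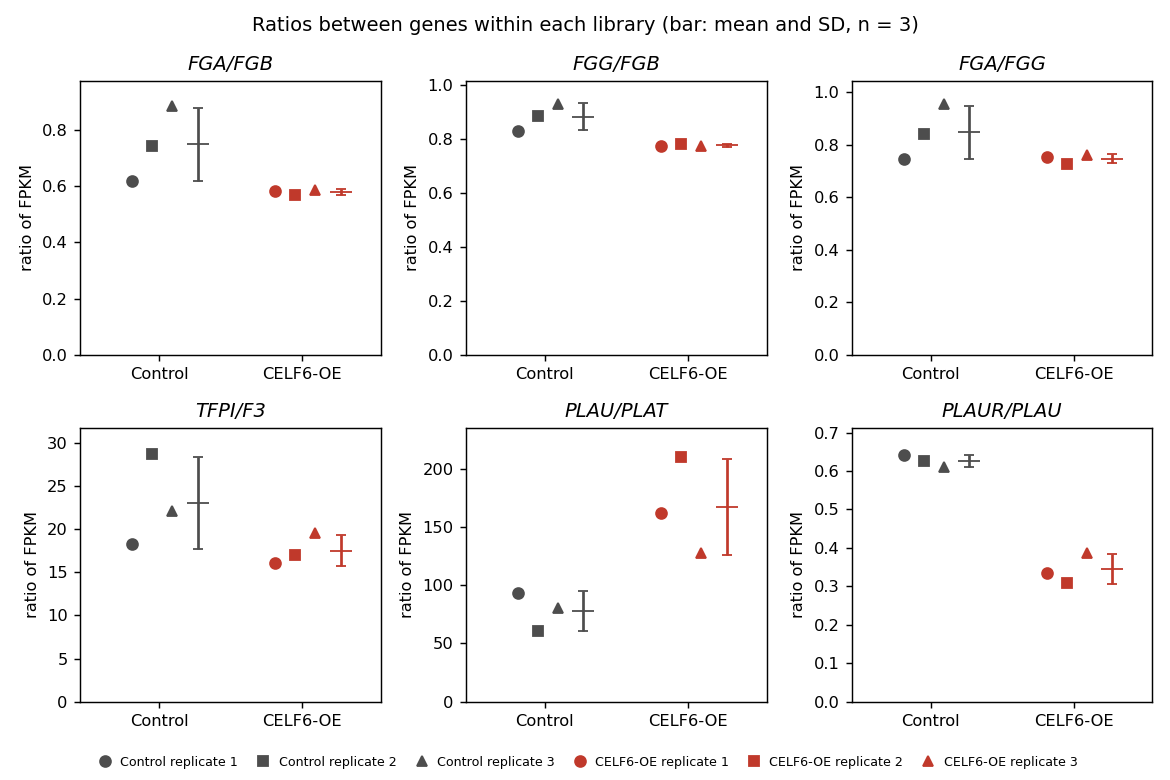
Ratio of FPKM of 2 genes (y axis, linear, from 0) within each Control (grey) and CELF6-OE (red) library, with the mean and SD, 1 panel per ratio. FGA per FGB is between 0.568 and 0.587 in the CELF6-OE libraries and between 0.618 and 0.887 in the Control libraries.

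Few other genes near the fibrinogen genes could be tested. Within 500 kb of them 20 genes are annotated, 8 of which were in the tables and 4 of which, the fibrinogen genes included, were tested. The remaining one, PLRG1, a pre-mRNA splicing factor gene, had 18.7 ± 0.193 FPKM in CELF6-OE and 16.9 ± 1.40 FPKM in Control (SD, n = 3). Its log2 fold change was 0.12 ± 0.066 (SE), with an adjusted p of 0.231 (edgeR). PLRG1 was higher in every CELF6-OE library than in any Control library, as was the CPM of 17.9% of all genes tested. The retinol enzyme gene LRAT, the small RNA gene RNU2-66P, DCHS2 and RP11-9N12.2 were too low to test.

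The initiator of coagulation was low and did not pass the test, and its inhibitor fell. F3 (ENSG00000117525, chr1:94529173-94541759, minus strand), which encodes tissue factor, had 0.98, 0.86 and 0.88 FPKM in CELF6-OE and 1.37, 0.72 and 0.75 FPKM in Control. The groups overlapped, and Control replicate 1 stood above the other 5 libraries. The log2 fold change of F3 was -0.09 ± 0.23 (SE), with a 95% interval from -0.59 to 0.42 and an adjusted p of 0.82 (edgeR). Between 65 and 119 counts per library lay behind it. Without Control replicate 1 the log2 fold change was 0.24 (adjusted p of 0.389).

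TFPI (ENSG00000003436, chr2:187464230-187565760, minus strand), the tissue factor pathway inhibitor, had 15.8, 14.6 and 17.2 FPKM in CELF6-OE and 25.1, 20.7 and 16.5 FPKM in Control. Control replicate 3 was below CELF6-OE replicate 3 in FPKM and just above it in scaled CPM (74.6 against 74.0). TFPI fell by 0.41 on the log2 scale (SE 0.11), a 1.33-fold difference, with an adjusted p of 0.03 (edgeR). It passed in 14 of 20 alternatives. It did not pass without CELF6-OE replicate 1 (adjusted p of 0.0956), without CELF6-OE replicate 2 (0.127), without Control replicate 2 (0.1), with library size alone (0.0733) or with limma on log2 FPKM (0.109 with a pseudocount of 1 and 0.103 with 0.1). The ratio of TFPI to F3 was 17.5 ± 1.8 in CELF6-OE and 23.0 ± 5.3 in Control (SD, n = 3), with overlapping groups (exact permutation p = 0.2, adjusted 0.24). Its log2 difference was -0.37 with all libraries, -0.20 without Control replicate 2 and -0.53 without Control replicate 1.

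PROS1 (ENSG00000184500, chr3:93873051-93980003, minus strand) had 4.09, 4.02 and 4.66 FPKM in CELF6-OE and 5.83, 4.85 and 3.63 FPKM in Control, so that the Control range enclosed all CELF6-OE libraries. Its log2 fold change was -0.19 ± 0.14 (SE), with a 95% interval from -0.49 to 0.11 and an adjusted p of 0.364 (edgeR). Without Control replicate 3, the lowest library, PROS1 passed the test at a log2 fold change of -0.34 (adjusted p of 0.0268), and without Control replicate 1, the highest, the log2 fold change was -0.05 (0.763).

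Of the plasminogen activators PLAT fell, and PLAU did not pass the test. PLAU (ENSG00000122861, chr10:73909177-73917496, plus strand), the urokinase gene, had 92.4, 114 and 91.2 FPKM in CELF6-OE and 76.6, 82.7 and 90.4 FPKM in Control, with CELF6-OE replicate 2 well above the others. The groups did not overlap in FPKM but did in scaled CPM, where Control replicate 3 (262.5) exceeded CELF6-OE replicates 1 (258.6) and 3 (253.1). The log2 fold change of PLAU was 0.22 ± 0.097 (SE), with a 95% interval from 0.00 to 0.43 and an adjusted p of 0.145 (edgeR). It passed with no filter on low counts (0.21, adjusted p of 0.0309) and without Control replicate 3 (0.30, 0.0323), and it was smaller without CELF6-OE replicate 2 (0.11, 0.514) or Control replicate 1 (0.13, 0.28).

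PLAT (ENSG00000104368, chr8:42174718-42207709, minus strand), the tissue plasminogen activator gene, was low at 0.57, 0.54 and 0.71 FPKM in CELF6-OE and 0.82, 1.37 and 1.12 FPKM in Control, on 55 to 149 counts per library. Every CELF6-OE library was below every Control library. PLAT fell by 0.90 on the log2 scale (SE 0.21), to 53.5% of Control, with an adjusted p of 0.015 (edgeR). It passed in 17 of 20 alternatives and lost the call without CELF6-OE replicate 1 (adjusted p of 0.0618), CELF6-OE replicate 2 (0.0742) or Control replicate 2 (0.0821). PLAU per PLAT, in FPKM, was 162, 210 and 128 in CELF6-OE and 93.4, 60.3 and 80.7 in Control. The ratio differed by 1.09 on the log2 scale without overlap (exact permutation p = 0.1, adjusted 0.15).

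PLAUR (ENSG00000011422, chr19:43646095-43670547, minus strand), the urokinase receptor, spanned 0.25 on the log2 CPM scale between Control replicates and 0.18 between CELF6-OE replicates, the least of the 9 genes in each group. It had 30.9, 35.2 and 35.3 FPKM in CELF6-OE and 49.2, 51.7 and 55.2 FPKM in Control, with the groups far apart. The means were 33.8 ± 2.54 and 52.0 ± 3.04 FPKM (SD, n = 3). PLAUR fell by 0.65 on the log2 scale (SE 0.079), to 63.5% of Control, with an adjusted p of 0.000239 (edgeR). It passed in all 20 alternatives, with an adjusted p of at most 0.00287. PLAUR per PLAU was 0.334, 0.31 and 0.387 in CELF6-OE and 0.642, 0.626 and 0.611 in Control. Its log2 difference was -0.87 (exact permutation p = 0.1, adjusted 0.15).

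**Figure D3:**
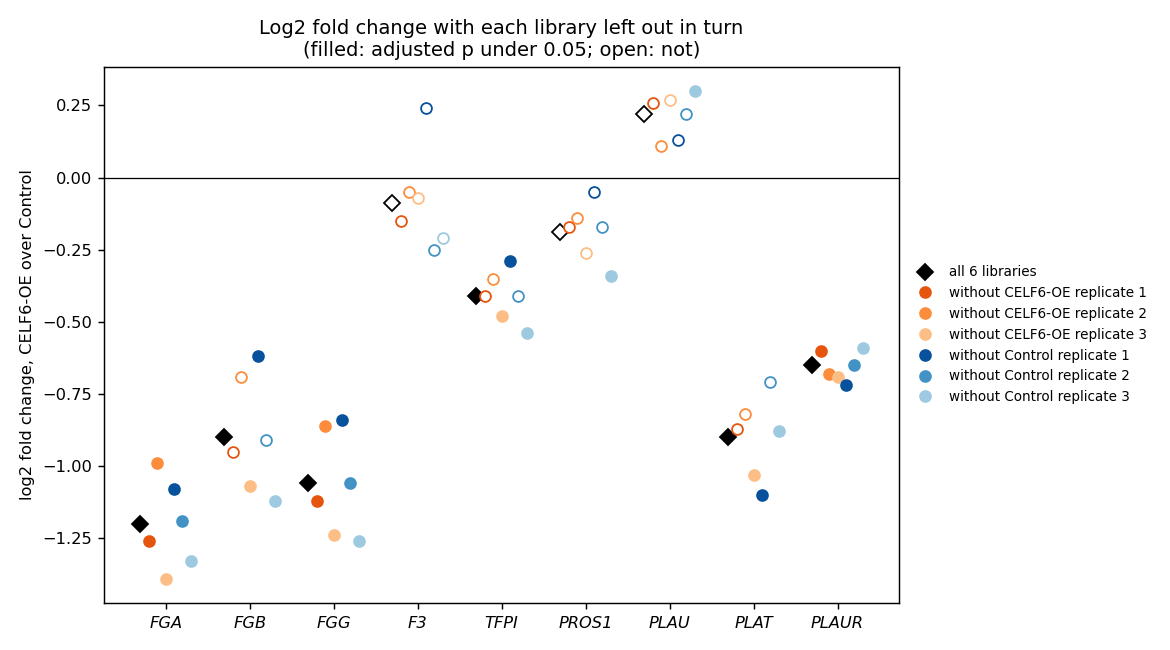
Log2 fold change of each of the 9 genes (x axis) with all 6 libraries and with each library left out in turn. FGA, FGG and PLAUR pass the test in all 6 of these fits, and the estimate for F3 ranges from -0.25 to 0.24.

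Of 42 other coagulation and fibrinolysis genes, 38 were in the tables and 22 were tested, and the remaining 16 had 1 to 49 counts over the 6 libraries. Among the 22, 7 fell (3 of them by at least 1.5-fold), 2 rose and 13 did not pass, and the median log2 fold change was -0.18. Of all genes tested, 11.5% fell (5.82% by at least 1.5-fold) and 6.47% rose, so the 2 that rose are near that share. Of 5 clotting factors tested 2 fell. F2, the prothrombin gene, fell from 2.82 ± 0.201 to 1.37 ± 0.0854 FPKM (log2 fold change of -1.07, adjusted p of 0.000207), and F7, the factor VII gene, fell by 1.44 on the log2 scale on at most 0.44 FPKM (adjusted p of 0.037). The call on F7 held in only 1 of 6 fits with a library left out. None of the 4 vitamin K and secretion genes tested passed. Of 4 anticoagulant genes, 3 fell: THBD, the thrombomodulin gene (-0.40, adjusted p of 0.0149), PROCR, the protein C receptor gene (-0.29, 0.0186), and TFPI2 (-0.28, 0.0227).

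Of 5 fibrinolysis genes tested 1 fell, PLGRKT, a plasminogen receptor gene (log2 fold change of -0.54, adjusted p of 0.0026). The plasminogen binding proteins ANXA2 and S100A10 were the highest of this list, at 2034 and 609 FPKM in CELF6-OE, and did not pass (log2 fold changes of -0.16 and -0.08). Of 3 protease-activated receptor genes tested 2 rose, the thrombin receptor genes F2R (0.31, adjusted p of 0.0322) and F2RL2 (0.37, 0.0143). F2RL1, whose receptor is cut by trypsin-like proteases, did not pass (0.12, 0.313). FGL1, which encodes a fibrinogen-like protein, fell from 6.56 ± 1.95 to 3.46 ± 0.993 FPKM (log2 fold change of -0.95, adjusted p of 0.0152). THBD, PROCR, TFPI2, F2R, F2RL2 and FGL1 each lost the call without at least 1 library, Control replicate 2 among them for all 6, and with adjusted p of up to 0.174 there. F2 and PLGRKT passed in all 6 fits with a library left out.

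**Figure D4:**
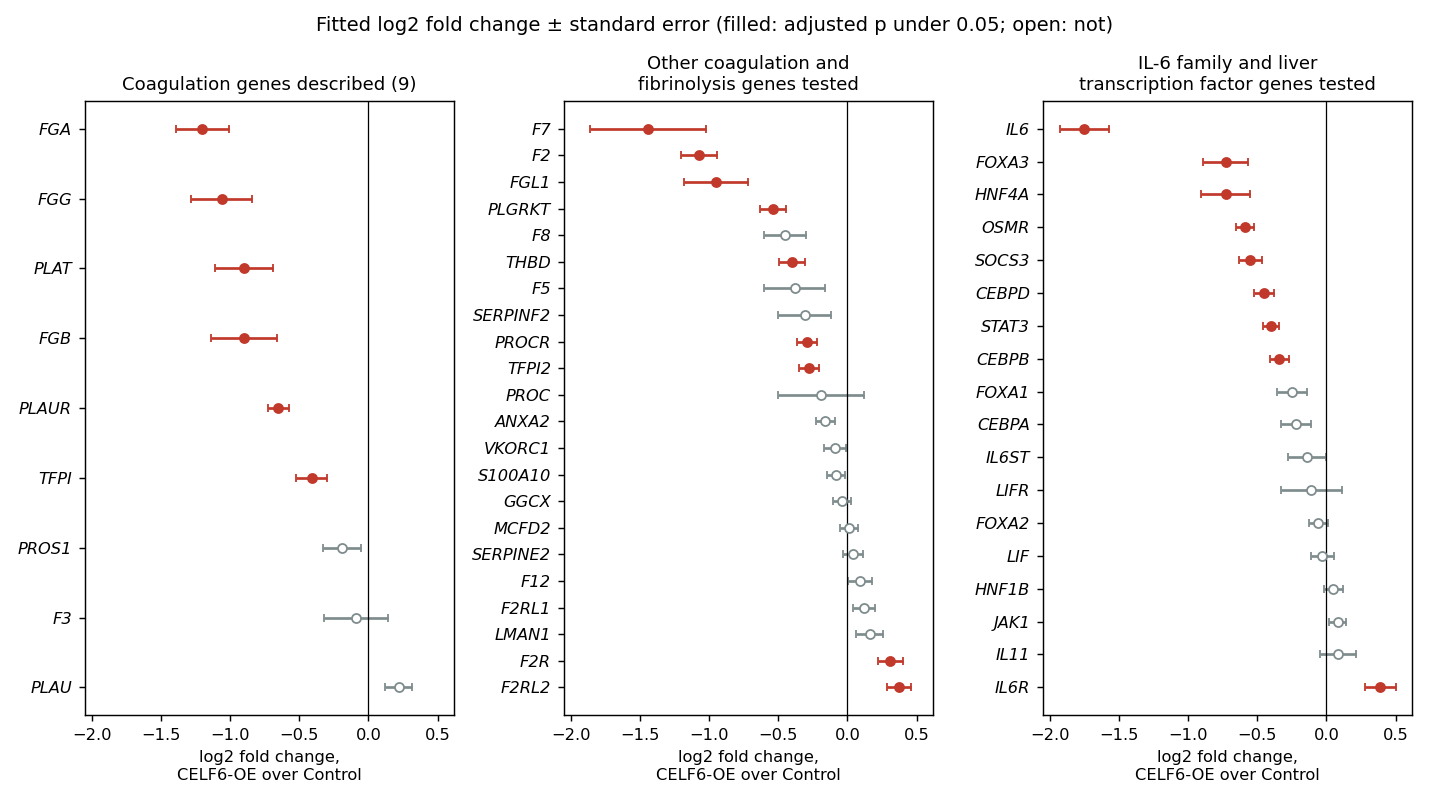
Log2 fold change of CELF6-OE over Control with its standard error (x axis) for the 9 genes, the other coagulation and fibrinolysis genes tested and the IL-6 family and liver transcription factor genes. Filled points passed the test. FGA, FGB, FGG and PLAT lie at -0.90 or below, and F2R and F2RL2 lie to the right of 0.

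Of 19 genes of IL-6 type signalling and of liver transcription factors, 18 were tested, since OSM had 3 counts in all. Among them 8 fell (4 by at least 1.5-fold), 1 rose and 9 did not pass, and the median log2 fold change was -0.24. The shares of all genes tested were 11.5% lower (5.82% by at least 1.5-fold) and 6.47% higher, and the 1 that rose is near the latter. IL6, the cytokine that induces fibrinogen in the liver, had 0.92, 1.76 and 1.44 FPKM in CELF6-OE and 4.7, 4.59 and 4.27 FPKM in Control. It fell by 1.75 on the log2 scale (SE 0.18), with an adjusted p of 9.37e-05 (edgeR). OSMR, a receptor subunit for oncostatin M, fell by 0.59, STAT3, the signal transducer of these cytokines, by 0.40, and SOCS3, its feedback inhibitor, by 0.55. Of the 7 cytokine and receptor genes tested, IL6 and OSMR were the 2 that fell, 1 rose and 4 did not pass. IL6R, the receptor subunit that binds IL-6, rose by 0.39 (adjusted p of 0.0339, edgeR) and lost the call without CELF6-OE replicate 1, CELF6-OE replicate 2 or Control replicate 2 (adjusted p of 0.0749, 0.164 and 0.0858). JAK1, one of the 3 highest of this list, did not pass (0.08).

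Of 8 liver transcription factor genes tested, 4 fell. HNF4A and FOXA3 each fell by 0.73, and each lost the call without Control replicate 2 (adjusted p of 0.0617 and 0.0621, edgeR). CEBPB, the highest of the list, fell from 147.0 ± 6.82 to 118.6 ± 4.24 FPKM (log2 fold change of -0.34, adjusted p of 0.00657), and CEBPD fell by 0.45 (adjusted p of 0.00163). These values stand beside those of the fibrinogen genes as measurements, and their part in the fibrinogen levels was not tested.

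Counts of some of the 9 genes could share reads with annotated neighbours. C10orf55 lies on the strand opposite to PLAU with 27 to 56 counts per library, CALCRL-AS1 opposite to TFPI with 3 to 8, and RN7SL368P on the strand of PLAUR with 0 to 2, against 2260 counts or more for each of the 3 genes. ENSG00000287770 on the strand of FGG, and Y_RNA and RNU6-511P opposite to PROS1, were not among the counted genes. Reads shared with them could not be gauged.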

How the data were processed

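The authors removed adaptors and low quality reads with FASTX-Toolkit, mapped what was left to GRCh38 using TopHat2 and used reads with a single location. The counting program, whether it used strand, and the annotation are not given in the sources used here, and no molecular identifiers are mentioned. The authors deposited read counts per gene (29889 genes) and FPKM values (29687 genes), rounded to 2 decimals, for the same 6 libraries, and no column was left out. Groups and replicate numbers came from the sample labels.

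Counts were scaled with TMM and tested with edgeR 4.0.16 in R 4.3.3 (glmQLFit, glmQLFTest, prior count of 0.125, no covariate) on the 15847 genes kept by filterByExpr (minimum count of 10), with Benjamini-Hochberg adjustment over all of them. The prior degrees of freedom were 7.15, and the biological coefficient of variation was 8.62%. The fit was also run on counts simulated from its own dispersions with known fold changes. That run cannot show how well the fit suits the spread of the real replicates. FPKM were used as deposited for levels and ratios, with two-sided exact permutation tests. Within a group, the chi-square of the counts of any 2 libraries per degree of freedom was 7.67 to 29.3, so none was a duplicate. Limits of 3 counts for a count of 0 cover counting error only. The labels call the replicates only by number and the methods call them biological.

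Members and lists were chosen with earlier results of these data known, and are no independent evidence. Named genes were the 9 members, CELF6, every listed gene that passed, the 3 highest of each list, partners of a member and the 3 genes most like each pattern. Of the listed genes, 2 are not reported here. Gene positions are from GENCODE v44. Alternatives were other scalings (RLE, upper quartile, library size), filters, tests (DESeq2 1.42.0, limma 3.58.1, edgeR's likelihood ratio and exact tests), a prior count of 2, removal of the CELF6 row, log2 FPKM with pseudocounts of 1 and 0.1, other thresholds and each library left out.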

Additional observations from a re-analysis of the deposited data

How the results depend on the processing

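Over 20 alternative settings, the log2 fold changes of FGA, FGG and PLAUR kept their direction and passed every time. Direction changed once among the 9 genes, for F3 without Control replicate 1 (0.24, against -0.25 without Control replicate 2 and -0.09 with all libraries). With each library left out in turn, 3 to 7 of the 9 genes fell (3 to 5 by at least 1.5-fold) and 0 to 1 rose, 2 to 8 of the other coagulation and fibrinolysis genes fell (1 to 3 by at least 1.5-fold) and 0 to 3 rose, and 6 to 9 of the IL-6 family and liver factor genes fell (1 to 4 by at least 1.5-fold) and 0 to 1 rose. Such fits have fewer samples. With limma on log2(FPKM + 1), 3 of the 9 genes, 1 of the other coagulation genes and 1 of the IL-6 family and liver factor genes fell by at least 1.5-fold, 4 other coagulation genes fell and 1 rose, and 0 IL-6 family and liver factor genes rose. With a pseudocount of 0.1, 4 other coagulation genes fell, 1 of them by at least 1.5-fold, 2 IL-6 family and liver factor genes fell by at least 1.5-fold and 0 rose. In the main fit with a fold change of at least 2, 2 of the 9 genes fell. So did 2 other coagulation genes and 1 of the IL-6 family and liver factor genes. With no filter on low counts 1 of the 9 genes, PLAU, rose. In that fit adjusted p was 3.28e-55 for FGA and 1.44e-40 for FGG (edgeR), against 0.00133 and 0.00671 in the main fit. A fit with no filter had earlier given infinite prior degrees of freedom, so a pass in that setting adds little. Why PLAU passed there was not tested. Deviations from the group mean were hardly correlated between CELF6-OE and Control libraries of the same replicate number (-0.0113, -0.0212 and -0.0722). This cannot show whether such libraries were prepared together. With the replicate number as a block 6 of the 9 genes fell, 5 by at least 1.5-fold, and 0 rose. F3, PLAT and F7 rest on few counts, which limits their precision.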

Other observations

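In the CELF6-OE libraries the order of CELF6 was the reverse of that of the fibrinogen chains. CELF6 was at 270.1, 294.9 and 172.3 FPKM in replicates 1 to 3, and FGB at 37.4, 24.4 and 42.8 FPKM, so that replicate 2 had the highest CELF6 and the lowest FGB, FGA and FGG. TFPI, PROS1 and PLAT had the same order as the chains in FPKM, so it was not particular to the chains. PLAU had the order of CELF6, and F3 and PLAUR had neither. With 3 libraries no relation was tested.

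Control replicate 1 was the highest and Control replicate 3 the lowest library of their group for FGA, FGB, FGG, TFPI and PROS1, and the order was the reverse for PLAU and PLAUR. PLAUR was most like RHPN1, C1QTNF1 and MAN2B1 over the 6 libraries (Pearson's r of 0.999, 0.998 and 0.998), all of which fell in CELF6-OE (log2 fold changes of -0.51, -0.96 and -0.40). TFPI was most like GPX8, ITFG1 and DCDC2, PLAT most like WBP1L, LBX2-AS1 and LOH12CR1, PLAU most like TNK2, PTRF and MESDC1, PROS1 most like METTL14, DNAJA1 and LIMA1, and F3 most like FAM96A, GMDS and CCDC82. These correlations share the same libraries, and no test was made of them. They include the group difference, so genes picked as most like a gene that fell tend to fall too.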
